A study of Mus musculus with 6 samples.

Results

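Ctla2a, Ctla2b and Egfl7 are 3 of the 23401 genes or joined groups of genes that the tables name. They were chosen by their measured difference between the groups: an earlier analysis of these same 6 libraries put them among the 12 genes it called lower. Their differences are therefore given as a description, without a test. The members were matched by gene symbol, and each had 1 row in every library. RNA came from sorted thymocytes at the double-negative 1 (DN1) stage of mice 5 to 8 weeks old, in 3 libraries of the Tle134-deficient genotype (titled Tle134 mutant) and 3 of the WT genotype. The name Tle134 is taken to mean the Groucho-family corepressor genes Tle1, Tle3 and Tle4. The sort kept cells without lineage markers, TCRb, CD8a or CD25 and with CD44. The sources used here do not state how the genes were deleted or in which cells. Nor do they state whether mice were pooled or each library had its own, and p-values thus measure only the spread between these libraries.

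The targeted genes did not follow the genotype label. Tle1 stood at 11.5, 11.3 and 11.1 FPKM in the mutant libraries, against 1.37, 1.19 and 3.61 FPKM in WT. Tle3 stood at 82.6, 77.5 and 58.6 FPKM in the mutant libraries, against 26.1, 35.9 and 23.4 FPKM in WT. Tle4 stood at 27.8, 35.2 and 17.8 FPKM in the mutant libraries, against 17.9, 18.8 and 14.5 FPKM in WT. Tle1 and Tle3 did not overlap between the groups and Tle4 did, and none of the 3 passed a limma adjusted p of 0.05 (0.0954, 0.234 and 0.726). Of all genes tested, 8.67% likewise had no overlap with the mutant libraries higher. Values over a whole gene include reads outside any deleted part, so this checks the labels only in part. In what follows the group goes by its label, as the libraries labelled Tle134-deficient or, for short, the mutant-labelled libraries. The gate was checked at the RNA level. Cd8a was at 0 to 0.419 FPKM in mutant-labelled and 0.274 to 2.48 FPKM in WT libraries, and Cd44 at 32.5 to 74.3 FPKM in mutant-labelled and 27.5 to 53.4 FPKM in WT libraries. Il2ra, which encodes CD25, was detected in every library, at 6.75, 7.36 and 4.22 FPKM in the mutant-labelled libraries, against 2.83, 3.59 and 1.69 FPKM in WT, without overlap (limma adjusted p = 0.575). The share of 8.67% applies to this direction too. FPKM counts fragments by transcript length and by the mapped total of the library. Every row of the 3 genes carries the status OK, zeros included. Even so a listed 0 is given as listed, since 172 to 424 of the 11063 genes tested were listed at 0 in a given library.

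CTLA-2 alpha and beta, the products of Ctla2a and Ctla2b, are small proteins that resemble the propeptide of cathepsin L and related cysteine proteases. CTLA-2 alpha is known as an inhibitor of cathepsin L, and the transcripts were first cloned from activated mouse T cells and mast cells. Egfl7 encodes a secreted protein with epidermal growth factor repeats that is best known from endothelial cells and is also expressed by blood progenitors. An intron of Egfl7 carries the gene of miR-126, a microRNA of endothelial and haematopoietic progenitor cells.

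Ctla2b and Ctla2a lie on chromosome 13 (mm9, 60996712 to 60998808 and 61035516 to 61037986), 36.7 kb apart, and Egfl7 lies on chromosome 2 (26436576 to 26448202). In WT replicate 2 the assembled Ctla2b locus began further out, at 60996365. The start regions are shown because the neighbours Ctla2a and Ctla2b were both lower and are close in sequence, with Egfl7 beside them for contrast. The windows span 300 bases around an annotated start, from RefSeq on build GRCm38.p6, which is not the build of the tables. All 3 genes were matched, with 2 starts for Ctla2a, 1 for Ctla2b and 3 for Egfl7. The first window is printed for Ctla2a (chr13:60936576-60936875, minus strand), the single one for Ctla2b (chr13:60897398-60897697, minus strand) and the first for Egfl7 (chr2:26580833-26581132, plus strand). Capitals mark matches, on either strand, to the letters of RUNX, TCF/LEF, GATA, ETS or AP-1 motifs, which are spelled out after the sequences.
Ctla2a: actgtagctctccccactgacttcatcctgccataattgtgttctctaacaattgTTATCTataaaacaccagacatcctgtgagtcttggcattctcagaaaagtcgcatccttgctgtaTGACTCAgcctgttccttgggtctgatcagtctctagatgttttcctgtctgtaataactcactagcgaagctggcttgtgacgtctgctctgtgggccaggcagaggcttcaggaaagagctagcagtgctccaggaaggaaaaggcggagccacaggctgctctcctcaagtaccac
Ctla2b: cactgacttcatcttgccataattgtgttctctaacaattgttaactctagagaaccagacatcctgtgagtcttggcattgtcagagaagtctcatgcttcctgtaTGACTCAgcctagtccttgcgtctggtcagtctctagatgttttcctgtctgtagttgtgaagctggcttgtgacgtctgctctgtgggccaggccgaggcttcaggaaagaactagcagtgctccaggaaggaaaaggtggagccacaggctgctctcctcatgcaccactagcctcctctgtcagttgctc
Egfl7: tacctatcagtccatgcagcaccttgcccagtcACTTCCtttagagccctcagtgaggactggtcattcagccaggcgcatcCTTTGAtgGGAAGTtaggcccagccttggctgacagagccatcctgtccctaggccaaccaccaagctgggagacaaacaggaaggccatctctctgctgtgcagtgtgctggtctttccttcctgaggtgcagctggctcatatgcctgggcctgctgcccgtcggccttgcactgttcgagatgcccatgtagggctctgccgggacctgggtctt

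The Ctla2a and Ctla2b windows shared 255 of 278 aligned bases (91.7%), with 8 gap positions. Each held 1 AP-1 match (TGANTCA), found in 7.81% of all 32851 windows of this length, and 1 match to a cyclic AMP response element core (TGACGT, in 7.51%), which is left in lower case. The first Ctla2a window also held 1 GATA match (AGATAA, in 11.2% of windows) and, overlapping its last base, 1 TATA match (TATAAA, in 13.6%). The Ctla2b window held neither. RUNX letters (TGTGGT, in 16.8% of windows) were in no window of the 3 genes. TCF/LEF letters (TCAAAG, in 16%) were in the first Egfl7 window only, with 1 match. That window also held 2 ETS matches (GGAAGT) and the second Egfl7 window 1 (in 23.8% of windows), and the third Egfl7 window held 4 KLF/SP matches (GGGCGGG, in 25.6%), some overlapping each other. No value in the tables says which start was used. A match is a string of letters and does not show that a factor binds there.

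Reads could be divided between the paired genes where their transcripts are identical. The annotated coding transcripts Ctla2a-201 (1373 bases) and Ctla2b-201 (842 bases) were identical at 750 of 838 aligned bases (89.5%). Of the stretches of 50 bases in them, 7.10% of those in Ctla2a-201 and 11.9% of those in Ctla2b-201 also occurred in a transcript of the other gene. Of stretches of 75 bases, 2.23% and 3.78% did, and of stretches of 100 bases, 0% and 0%. In the other Ctla2b transcript, Ctla2b-202 (1094 bases), the shares were 15.7%, 7.25% and 2.81%. The sources used here do not state the read length. Most of each transcript can thus be told apart by an exact match, while reads placed with mismatches could still be shared.

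Ctla2a was listed at 0 in mutant-labelled replicate 1 and stood at 0.87 and 4.04 FPKM in replicates 2 and 3, against 12.6, 27.8 and 35.9 FPKM in the WT libraries. The groups did not overlap, and the highest upper bound in the mutant-labelled libraries (5.06 FPKM) lay below the lowest lower bound in WT (9.69 FPKM). Those bounds are the authors' deposited interval for each value. Within its group, mutant-labelled replicate 3 was the highest, and WT replicate 1 was the lowest of WT.

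Ctla2b was the lowest of the 3 genes. It was listed at 0 in mutant-labelled replicates 1 and 2 and at 0.611 FPKM in replicate 3, against 5.48, 7.69 and 10.2 FPKM in WT. Again the intervals did not meet, with an upper bound of 1.15 FPKM in mutant-labelled replicate 3 and a lower bound of 2.91 FPKM in WT replicate 1. Ctla2b reached 1 FPKM only in the WT libraries, so it entered the genes tested through that group alone.

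Egfl7 stood at 0.723, 0.753 and 4.50 FPKM in the mutant-labelled libraries, against 15.5, 21.8 and 19.7 FPKM in WT. It averaged 1.99 ± 2.17 FPKM in the mutant-labelled and 19.0 ± 3.22 FPKM in the WT libraries (SD, n = 3 each). The intervals reached up to 5.72 FPKM in mutant-labelled replicate 3 and down to 11.2 FPKM in WT replicate 1. Egfl7 was the most even of the 3 genes over the WT libraries, with an SD of 0.24 on the log2(FPKM + 1) scale, against 0.40 for Ctla2b and 0.75 for Ctla2a.

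**Figure D1:**
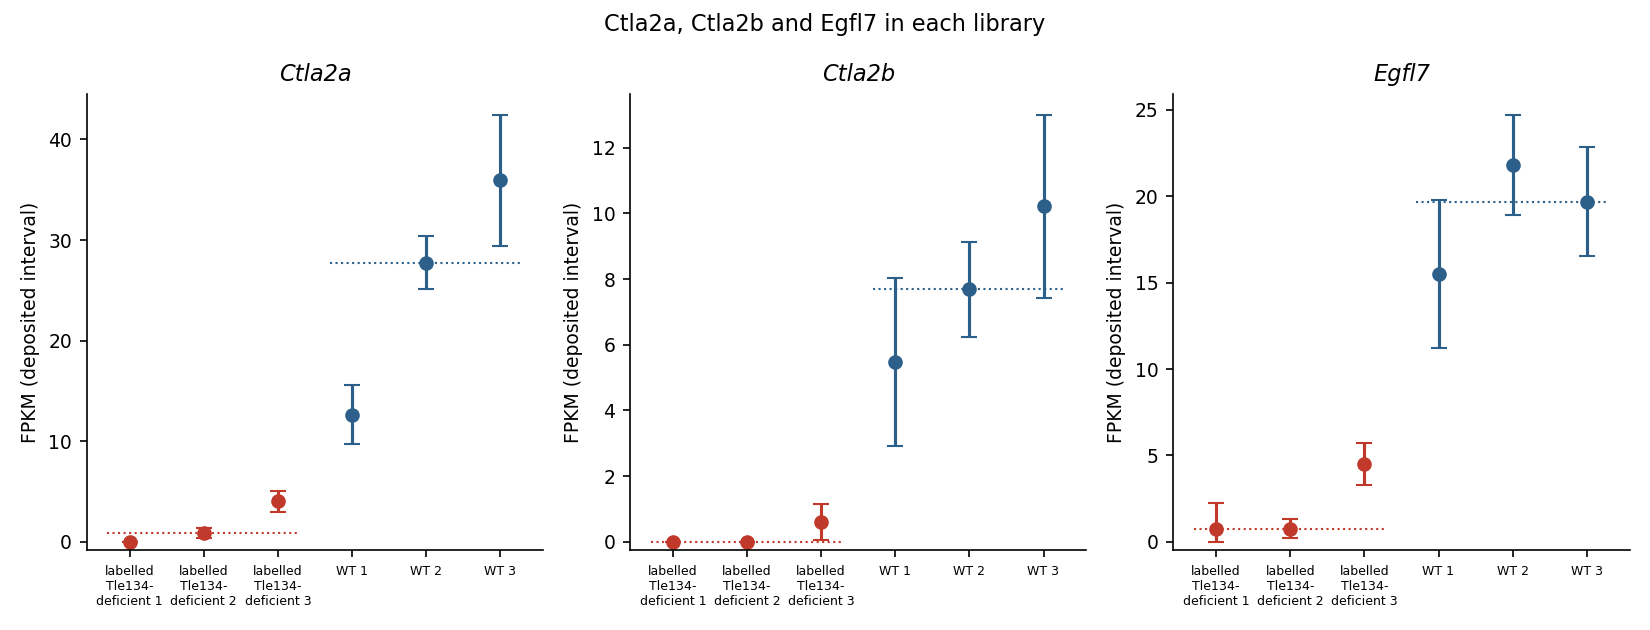
FPKM of Ctla2a, Ctla2b and Egfl7 (vertical axes, linear) in the 3 libraries labelled Tle134-deficient (red) and the 3 WT libraries (blue); bars are the authors' deposited intervals and dotted lines the group medians. No interval of a mutant-labelled library reaches one of a WT library, and mutant-labelled replicate 3 is the highest of its group for each gene.

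On the log2(FPKM + 1) scale, the difference between the group means, mutant-labelled minus WT, was -3.53 for Ctla2a, -2.87 for Ctla2b and -2.96 for Egfl7. The pooled SD within groups was 0.99, 0.40 and 0.70 on the same scale. Since the added 1 FPKM sets how far a value near 0 can fall, the size of these differences depends on it. With 0.1 FPKM added instead they were -4.99, -5.31 and -3.68. The median difference of all 11063 genes tested was 0.04. All 3 genes passed the filter of 1 FPKM in at least 3 libraries.

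For these 3 genes, 3 of 3 had no overlap between the groups with mutant-labelled lower, as had 6.56% of all genes tested (8.67% with the group higher). For all 3 the deposited intervals did not meet either, as for 1.96% of all genes tested in this direction and 3.06% in the other. Limma, a linear model across all genes with Benjamini-Hochberg adjustment, called 12 genes lower (0.108%) and 71 higher (0.642%) at an adjusted p under 0.05. The 3 genes were among the 12, which is how they came to be chosen, so nothing is read from these shares. By adjusted p, the gene just inside the threshold on the lower side was Lpl (-2.54 on the log2(FPKM + 1) scale), and those just outside were Tpsb2 (-3.07) and Drc7 (-2.78). In that fit 0 genes were called without mutant-labelled replicate 1, mutant-labelled replicate 2 or WT replicate 1 (951, 956 and 877 genes had an unadjusted p under 0.05, where the 6 libraries together gave 1109). It called 45 without mutant-labelled replicate 3 (11 of them lower), 4 without WT replicate 2 (2 lower) and 58 without WT replicate 3 (2 lower). The calls of the 3 genes were lost where 0 genes were called. They cannot all have held without WT replicate 2 or without WT replicate 3, where only 2 genes were called lower each time. Leaving out each library in turn gave differences of -4.16 to -2.99 for Ctla2a, -3.10 to -2.68 for Ctla2b and -3.51 to -2.67 for Egfl7.

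**Figure D2:**
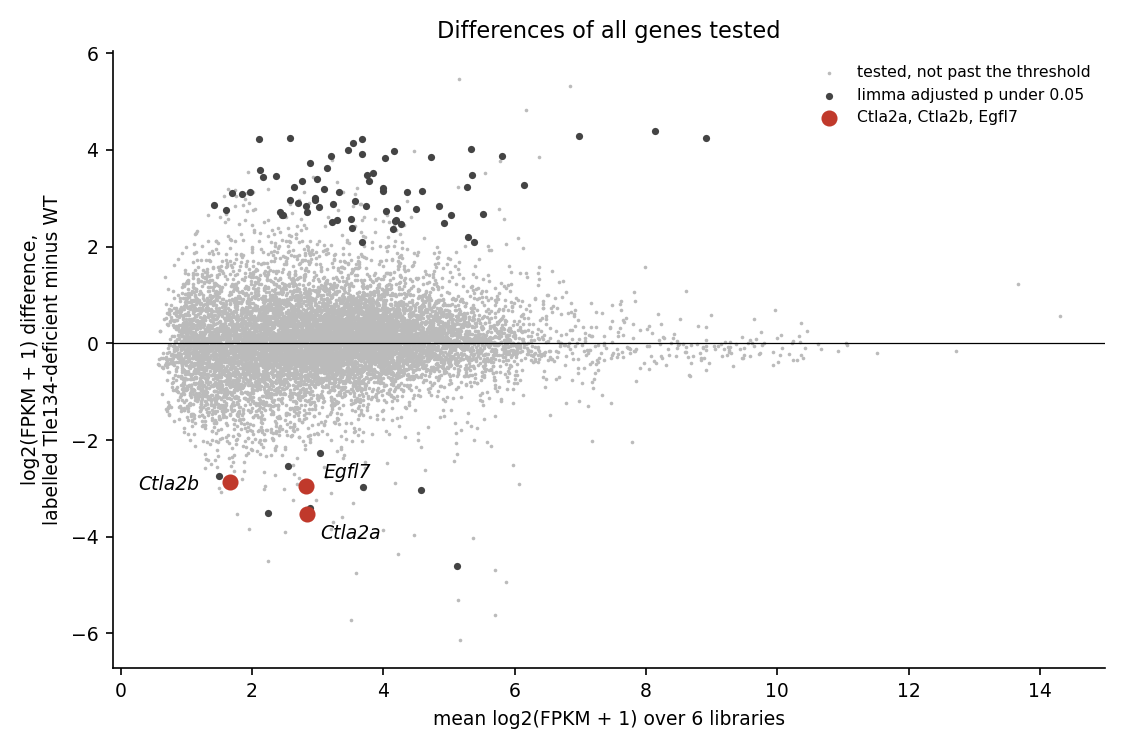
Mean log2(FPKM + 1) over the 6 libraries (horizontal axis) against the difference labelled Tle134-deficient minus WT (vertical axis) for the 11063 genes tested; black points had a limma adjusted p under 0.05. Ctla2a, Ctla2b and Egfl7 (red) lie at -3.53, -2.87 and -2.96, in the lower left of the cloud.

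The fragments behind these values were few on the mutant-labelled side. With a deposited interval read as 2 SD of the fragments to either side, Ctla2a rested on about 12 and 62.0 fragments in mutant-labelled replicates 2 and 3, against 73.4, 432 and 122 in WT. Egfl7 rested on about 0.927, 7.68 and 54.5 fragments in the mutant-labelled libraries, against 52.5, 228 and 155 in WT. The Egfl7 value of mutant-labelled replicate 1 is thus worth about 1 fragment, and its interval ran from 0 to 2.22 FPKM. Ctla2b rested on about 5.17 fragments in mutant-labelled replicate 3, against 18.3, 112 and 53.8 in WT. By the same reckoning a whole library held 1.51e+06, 3.16e+06 and 4.34e+06 fragments in named genes in the mutant-labelled group and 1.42e+06, 3.21e+06 and 3.24e+06 in WT. Mutant-labelled replicate 3, where all 3 genes were highest of the group, is also the deepest library by this measure. These intervals do not cover the spread between libraries, and they may hold more than counting error. WT replicates 2 and 3 had similar totals, yet Ctla2a at 27.8 and 35.9 FPKM there gave 432 and 122 fragments. The fragment numbers are thus rough equivalents, not counts.

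Ranked within a library, Egfl7 lay above 7.67%, 5.91% and 29.1% of the genes tested in the mutant-labelled libraries, against 77.0%, 84.2% and 72.3% in WT. Ctla2a lay above 0%, 6.88% and 26.6% in the mutant-labelled libraries, against 70.9%, 88.8% and 85.5% in WT. Ctla2b lay above 0%, 0% and 5.48% in the mutant-labelled libraries, against 43.1%, 50.8% and 52.7% in WT, near the middle of the genes tested. In WT, Egfl7 and Ctla2a were thus genes of middle to high level, and Ctla2b was an average one.

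Because FPKM is per length, the 3 genes can be set in order within a library. In mutant-labelled replicates 2 and 3 the intervals of Ctla2a and Egfl7 overlapped. In WT replicates 2 and 3 Ctla2a was the highest, at 1.27 and 1.83 times the FPKM of Egfl7. In WT replicate 1 it was 0.816 times that of Egfl7, with overlapping intervals, so the order of this pair of genes was not fixed. Ctla2b came last in all 6 libraries, tied at 0 with Ctla2a in mutant-labelled replicate 1. Ctla2b made up 0% and 13.2% of the summed Ctla2a and Ctla2b FPKM in mutant-labelled replicates 2 and 3, against 30.2%, 21.7% and 22.1% in WT. The share in mutant-labelled replicate 3 rests on Ctla2b at 0.611 FPKM, with an interval of 0.073 to 1.15 FPKM. A difference in share was not tested. The sum of the pair was 0, 0.87 and 4.65 FPKM in the mutant-labelled libraries, against 18.1, 35.5 and 46.2 FPKM in WT. Adding the pair gave a difference of -3.87 on the log2(FPKM + 1) scale, and the groups of summed values did not overlap.

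The surroundings of the 3 genes were then examined, taking all named genes within 100 kb in mm9. Around Ctla2b and Ctla2a lie placental trophoblast and cathepsin genes, and none of them reached the filter. Tpbpa, whose locus begins 2.07 kb from the Ctla2a locus, was listed at 0 in all 6 libraries, as were Ctsj and Ctsll3. Tpbpb, between the pair, was at 7.83 FPKM in mutant-labelled replicate 1 and 0 in the other 5 libraries. Ctsq was at 0.738 FPKM in mutant-labelled replicate 1 and 0 elsewhere, and 4930486L24Rik was at 0 in the mutant-labelled libraries and at 0, 0.606 and 0.427 FPKM in WT. Ctla2a and Ctla2b were thus the genes with signal in this stretch of the WT libraries, apart from the trace of 4930486L24Rik. Over the 10 placental cathepsin and trophoblast genes of this cluster that were listed for study, 7 stood at 0 in all 6 libraries.

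Egfl7 has expressed neighbours. Agpat2, an enzyme of phospholipid and triglyceride synthesis whose locus begins 375 bases away, was at 6.79, 2.73 and 7.31 FPKM in the mutant-labelled libraries, against 8.59, 6.97 and 8.72 FPKM in WT. The groups overlapped, and the difference was -0.54 ± 0.47 (SE, limma adjusted p = 0.804). Fam69b, 35.8 kb away, was at 1.74, 1.14 and 10.1 FPKM in the mutant-labelled group, against 3.29, 5.44 and 5.53 FPKM in WT (adjusted p = 0.904). Snhg7, a small nucleolar RNA host gene joined with Snora17 and Snora43, was at 0, 3.63 and 20.5 FPKM in the mutant-labelled group, against 0, 6.07 and 21.0 FPKM in WT (adjusted p = 0.986). The sign of its difference of -0.22 turned without mutant-labelled replicate 1 (0.89) or WT replicate 3 (0.80). Lcn4, a lipocalin gene under the filter, was at 0 in the mutant-labelled libraries and at 2.79, 19.7 and 0 FPKM in WT. Notch1, the receptor gene 77.2 kb away, joined with Mir6996, was at 9.06, 14.7 and 6.95 FPKM in the mutant-labelled libraries, against 19.3, 68.9 and 20.9 FPKM in WT (-1.54 ± 0.55, adjusted p = 0.332). Its groups did not overlap, which 6.56% of all genes tested also showed in this direction. None of the 4 neighbours tested passed the threshold; whether the difference at Egfl7 exceeds that at any of them was not tested.

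**Figure D3:**
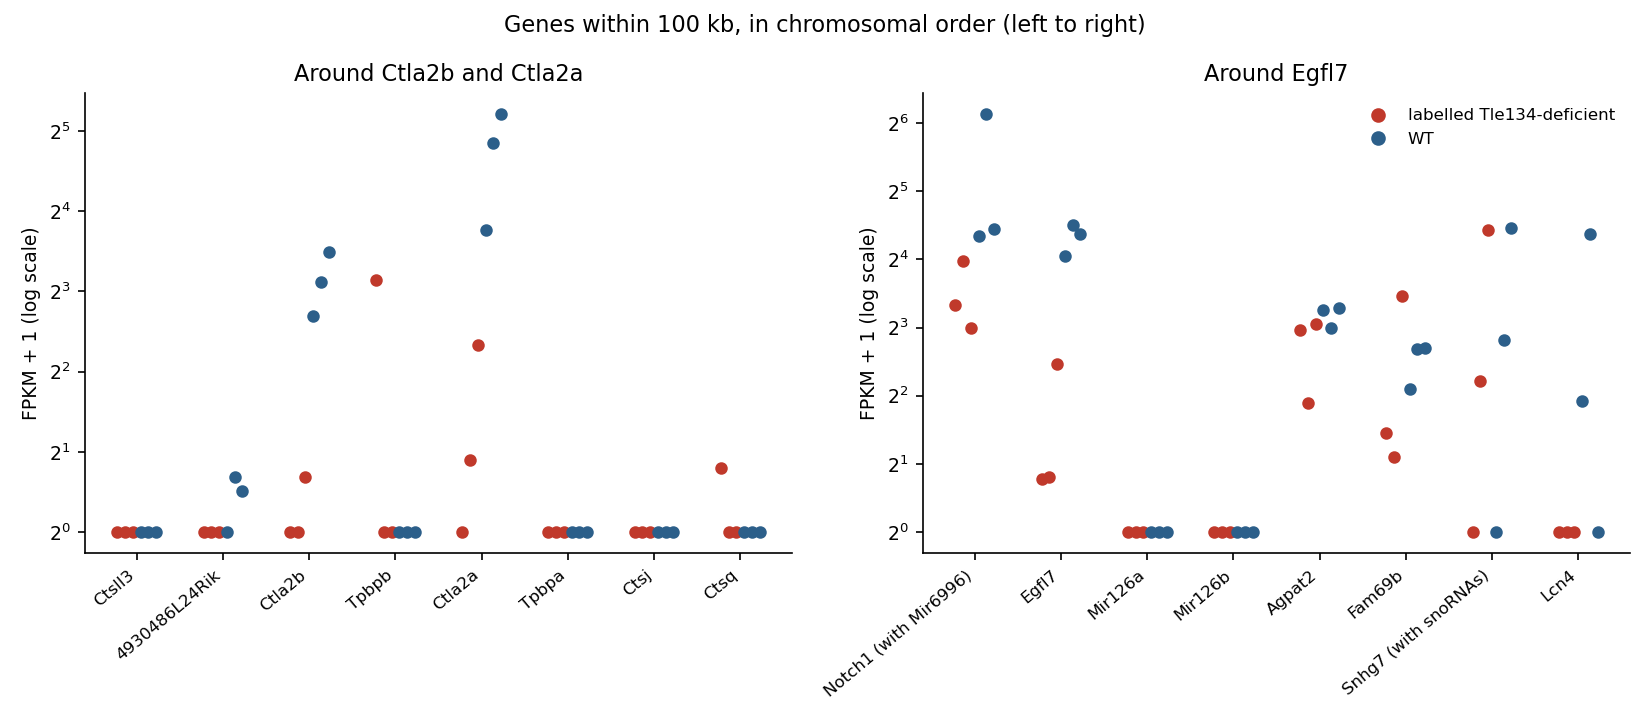
FPKM + 1 (vertical axes, log scale to base 2) of each named gene within 100 kb of Ctla2b and Ctla2a (left) and of Egfl7 (right), in chromosomal order, with 1 point per library, labelled Tle134-deficient in red and WT in blue. Beside Ctla2b and Ctla2a the other genes sit below 1 FPKM apart from Tpbpb in 1 library (7.83 FPKM), while Agpat2, 375 bases from Egfl7, overlaps between the groups.

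The microRNA of the Egfl7 locus could not be followed in these tables. Its mature form is printed with the seed, bases 2 to 8, in capitals (RefSeq, GRCm38.p6, chr2:26591402-26591423, plus strand), because a list of genes reported as its targets is described next; the seed was not searched for in those genes.
mmu-miR-126a-3p: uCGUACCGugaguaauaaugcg

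Mir126a lies in intron 7 of the 10-exon Egfl7 transcripts, and Mir126b on the opposite strand at the same place (GENCODE M21, GRCm38). Both were listed at 0 in all 6 libraries, and how far libraries of this kind can capture a mature microRNA was not tested, so nothing is said about miR-126 itself. Of 15 genes reported elsewhere as miR-126 targets, 10 passed the filter and 0 passed the threshold in either direction (0.642% of all genes tested were called higher and 0.108% lower). Their median difference was 0.15, with 6 above 0 and 4 below, beside 0.04 over all genes tested. Vcam1, an adhesion molecule of endothelium and stroma, had the smallest adjusted p, at 2.68, 3.13 and 3.73 FPKM in the mutant-labelled libraries, against 6.97, 7.42 and 22.3 FPKM in WT (-1.48 ± 0.52, adjusted p = 0.331).

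Proteases that CTLA-2 could meet were measured next. Of 11 lysosomal cysteine proteases (cathepsins and legumain) all 11 were tested and 0 passed the threshold, with a median difference of 0.17, 6 above 0 and 5 below. Cathepsin L itself, Ctsl, named here for its known link to CTLA-2 alpha, was at 14.6, 6.80 and 3.0 FPKM in the mutant-labelled libraries, against 28.6, 8.58 and 24.4 FPKM in WT. The groups overlapped (-1.30 ± 0.61, SE, adjusted p = 0.53). Ctsh, an aminopeptidase of the family, had the smallest adjusted p, at 42.2, 25.9 and 61.5 FPKM in the mutant-labelled group, against 13.1, 2.13 and 14.0 FPKM in WT (2.26 ± 0.63, adjusted p = 0.193). Of 11 cystatins and stefins, the other endogenous inhibitors of these enzymes, 6 stood at 0 in all libraries and 3 were tested, of which 0 passed. Cst7, the leukocyte cystatin, had the smallest adjusted p of these, at 12.3, 4.11 and 29.6 FPKM in the mutant-labelled group, against 17.6, 22.8 and 75 FPKM in WT (adjusted p = 0.604).

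Of 15 genes listed as the paralog or binding partners of Egfl7, 7 were tested and 0 passed, and their median difference was -0.36, with 2 above 0 and 5 below. Notch2 had the smallest adjusted p, at 33.7, 31.1 and 19.4 FPKM in the mutant-labelled libraries, against 7.78, 11.8 and 9.10 FPKM in WT (1.44 ± 0.40, adjusted p = 0.188). Egfl8, the paralog of Egfl7, was under the filter: it was listed at 0 in the mutant-labelled libraries and at 70.9, 0 and 1.74 FPKM in WT, so a single library held nearly all of its signal.

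Of 15 transcription factors known to act on endothelial genes, 10 were tested and 0 passed, with a median difference of 0.16, 6 above 0 and 4 below. Klf2, a flow-induced factor of endothelium and of circulating lymphocytes, had the smallest adjusted p, at 178, 189 and 81.4 FPKM in the mutant-labelled libraries, against 29.1, 37.0 and 25.0 FPKM in WT (adjusted p = 0.0897). Its difference ran opposite to that of Egfl7, and a link between them was not tested. Erg, an Ets factor of endothelium and stem cells, was at 2.25, 1.45 and 6.09 FPKM in the mutant-labelled group, against 6.16, 19.1 and 9.16 FPKM in WT (-1.57 ± 0.58, adjusted p = 0.356).

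Genes with a profile like those of Ctla2a, Ctla2b and Egfl7 were found by distance. Log2(FPKM + 1) values were centred on each gene's mean over the 6 libraries, and the root-mean-square distance between profiles was taken over 10552 named genes. These genes were chosen for their likeness, so no test is given for them, and since the group difference dominates each profile, likeness mostly means a fall of similar size. Among the 3 genes themselves the distance was 0.366 between Ctla2b and Egfl7, 0.504 between Ctla2a and Egfl7 and 0.618 between Ctla2a and Ctla2b, in log2 units. The neighbouring pair was thus less alike by this measure than either was to Egfl7. That order may depend on the added 1 FPKM, since the distances were not taken with another constant. The median distance of a gene from Egfl7 was 1.66.

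The 3 genes closest to Egfl7 were BC068281 (distance 0.415), Afap1l1 (0.459) and Eng (0.481). Eng encodes endoglin, a TGF-beta coreceptor of endothelium and blood stem cells. It was at 0, 1.17 and 5.08 FPKM in the mutant-labelled libraries, against 15.8, 27.3 and 10.7 FPKM in WT. Afap1l1, which encodes an actin-filament-associated protein, was at 0, 0.502 and 2.93 FPKM in mutant-labelled libraries and 6.32, 22 and 7.88 FPKM in WT. BC068281 was at 1.44, 0.905 and 7.04 FPKM in mutant-labelled libraries and 17.3, 15.8 and 36.9 FPKM in WT. In each of the 3, as in Egfl7, mutant-labelled replicate 3 was the highest of its group and below every WT library.

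Closest to Ctla2a were Rab26os (0.447), Serpinf1 (0.520) and again BC068281 (0.635). Serpinf1, a secreted serpin known as pigment epithelium-derived factor, was at 0, 1.59 and 3.50 FPKM in the mutant-labelled libraries, against 24.2, 16.2 and 30.6 FPKM in WT. Rab26os runs antisense to Rab26, and without a stated use of strand its reads may belong to either. Closest to Ctla2b were Sstr2 (0.335), Ccdc85c (0.387) and Pdgfrb (0.428). Sstr2, a somatostatin receptor, was at 0.311, 0 and 0 FPKM in mutant-labelled libraries and 4.96, 6.87 and 7.43 FPKM in WT, and its distance was the smallest of those of the 8 genes.

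**Figure D4:**
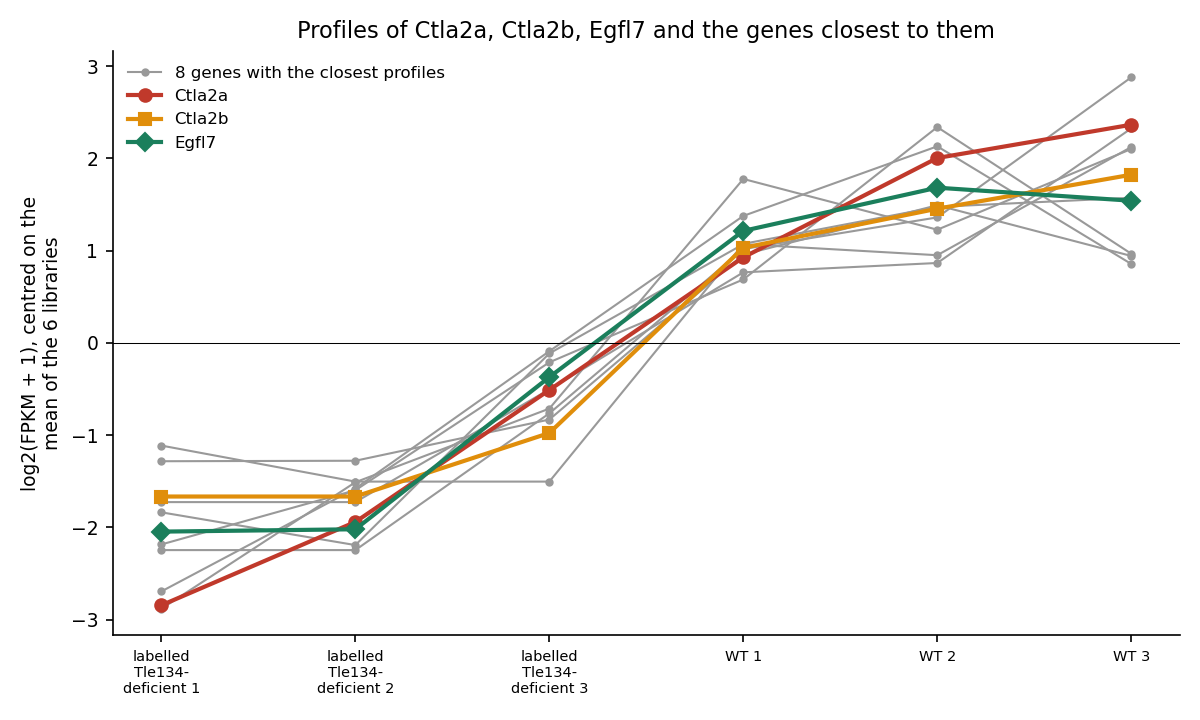
Log2(FPKM + 1) of Ctla2a, Ctla2b and Egfl7 (coloured) and of the 8 genes with the closest profiles (grey), each centred on its mean over the 6 libraries (vertical axis), by library (horizontal axis); lines only join the values of 1 gene, since libraries of a group have no order. All are below 0 in the 3 libraries labelled Tle134-deficient and above 0 in WT, and the member profiles lie 0.366 to 0.618 log2 units apart.

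Marker genes of the cells in which these transcripts are known were set beside them. In bulk samples, fewer cells of a type and less RNA per cell cannot be told apart. Of 21 endothelial markers, 20 could be measured on their own and 7 were tested, of which 0 passed, with a median difference of -1.79, 3 above 0 and 4 below. The summed level of the 20 was 54.9 to 78.6 FPKM in the mutant-labelled libraries, against 96.5 to 178 FPKM in WT. Much of that sum was Cd34 and Pecam1, which blood cells also express. Cd34 was at 19.4, 9.39 and 33.9 FPKM in the mutant-labelled group, against 35.8, 95.3 and 84.9 FPKM in WT (adjusted p = 0.248). Pecam1 was at 39.2, 39.9 and 30.0 FPKM in mutant-labelled libraries and 21.7, 21.1 and 17.3 FPKM in WT (adjusted p = 0.506). Eng, whose values are given above, had the smallest adjusted p of the list (0.104). Ecscr, an endothelial surface protein, was at 0.229, 0 and 0 FPKM in mutant-labelled libraries and 9.41, 1.21 and 6.83 FPKM in WT, and Adgrl4, an adhesion receptor of endothelium, at 0.470, 0.340 and 3.80 FPKM in mutant-labelled libraries and 2.84, 15.9 and 6.16 FPKM in WT. Some listed genes under the filter also had signal in WT. Plvap was at 0, 0.078 and 0.354 FPKM in mutant-labelled libraries and 3.06, 0.741 and 1.92 FPKM in WT. Robo4 was at 0, 0.611 and 0 FPKM in mutant-labelled libraries and 1.55, 4.17 and 0 FPKM in WT. Mmrn2 and Flt4 reached at most 0.383 and 0.161 FPKM in mutant-labelled libraries. In WT they were at 3.45, 0 and 0.794 FPKM and at 0.303, 5.32 and 0.415 FPKM. Some other defining genes of endothelium were at or near 0 in WT. Cdh5, the endothelial cadherin, was at 1.99, 0.388 and 0.487 FPKM in the mutant-labelled libraries, against 0, 0.185 and 0 FPKM in WT. Tie1 and Emcn were listed at 0 in all 3 WT libraries, and Cldn5 was at 0, 0 and 1.54 FPKM there. The part of endothelial cells in the result was not tested.

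Blood progenitor genes lay on both sides of 0. Of 22 progenitor genes, 17 were tested and 0 passed, with a median difference of -0.74, 6 above 0 and 11 below. Adgrg1, an adhesion receptor of stem cells and cytotoxic lymphocytes, had the smallest adjusted p, at 2.94, 10.8 and 20.5 FPKM in the mutant-labelled libraries, against 35.7, 112 and 54.1 FPKM in WT (-2.61 ± 0.66, adjusted p = 0.133). The summed level of the 21 measured alone was 260 to 591 FPKM in the mutant-labelled libraries, against 285 to 622 FPKM in WT.

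Mast cells are a known source of CTLA-2 transcripts. Of 13 mast cell and basophil genes listed, 10 were tested and 0 passed, with a median difference of -2.12, 1 above 0 and 9 below. Their summed level was 2.13, 5.49 and 129 FPKM in mutant-labelled replicates 1 to 3, against 162, 60.3 and 404 FPKM in WT. Replicate 3, the highest mutant-labelled library for the 3 genes, was thus also the highest of its group for mast cell genes. Cpa3, the mast cell carboxypeptidase, was at 0.992, 0.622 and 21.5 FPKM in the mutant-labelled group, against 54.4, 35 and 110 FPKM in WT (adjusted p = 0.109, and 0.0335 without mutant-labelled replicate 3). Tpsb2, a mast cell tryptase, was listed at 0 in the mutant-labelled libraries and at 5.82, 3.66 and 17.5 FPKM in WT (adjusted p = 0.050, not past the threshold, and 0.0378 after median-ratio scaling). WT replicate 2 had the lowest mast cell sum of WT, while its Ctla2a and Egfl7 values were not the lowest. The part of mast cells in the result was not tested.

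Among markers of other cells, 8 of the 12 B-cell genes tested rose and 0 fell, with a median difference of 3.36, beside 0.642% of all genes called higher. Their summed level was 710 to 1243 FPKM in the mutant-labelled libraries, against 121 to 188 FPKM in WT. Cd22, a B-cell inhibitory receptor, and Fcer2a, the low-affinity IgE receptor, had an adjusted p of 0.0154 and 0.0279, and without mutant-labelled replicate 1, mutant-labelled replicate 2 or WT replicate 1 these lay between 0.0923 and 0.122. Fcer2a also missed the threshold without WT replicate 2 (0.0697). Of 7 stromal and thymic epithelial genes tested, 1 fell and 0 rose (0.108% of all genes were called lower), with a median of -2.14. The sum of 10 such genes was 20.1 to 82.2 FPKM in the mutant-labelled libraries, against 81.4 to 399 FPKM in WT. The one that fell was Pdgfrb, a growth factor receptor of mesenchymal cells, at 2.38, 2.40 and 3.63 FPKM in the mutant-labelled group, against 15.0, 22.1 and 14.8 FPKM in WT (-2.26 ± 0.42, adjusted p = 0.0469). Its adjusted p was 0.0653 to 0.166 when any 1 library was left out.

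T-lineage genes had 13 members tested, of which 1 fell and 0 rose, with a median of -0.93 and a summed level of 263 to 790 FPKM in the mutant-labelled libraries, against 451 to 1192 FPKM in WT. The one that fell was Tox, a DNA-binding protein needed for T-cell development, at 5.71, 4.81 and 1.49 FPKM in the mutant-labelled group, against 32.0, 31.2 and 43.5 FPKM in WT (adjusted p = 0.0279, and 0.0506 to 0.126 when any 1 library was left out). Of 10 NK and innate lymphoid genes tested 0 passed, with Klrd1 at the smallest adjusted p (0.133), and the summed level was 119 to 226 FPKM in the mutant-labelled libraries, against 111 to 313 FPKM in WT. Erythroid and megakaryocyte genes (4 tested, 0 passed) summed to 18, 24.8 and 68.1 FPKM in mutant-labelled libraries and 33.9, 30.2 and 26.1 FPKM in WT. Monocyte, macrophage and neutrophil genes (10 tested, 0 passed) summed to 118, 121 and 1400 FPKM in the mutant-labelled libraries, against 154, 308 and 630 FPKM in WT. Mutant-labelled replicate 3 was the highest of its group in these last 2 sums too. Without mutant-labelled replicate 3 and WT replicate 3 together, the differences of Ctla2a, Ctla2b and Egfl7 were -3.86, -2.91 and -3.48. The part of these cell types in the result was not tested.

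**Figure D5:**
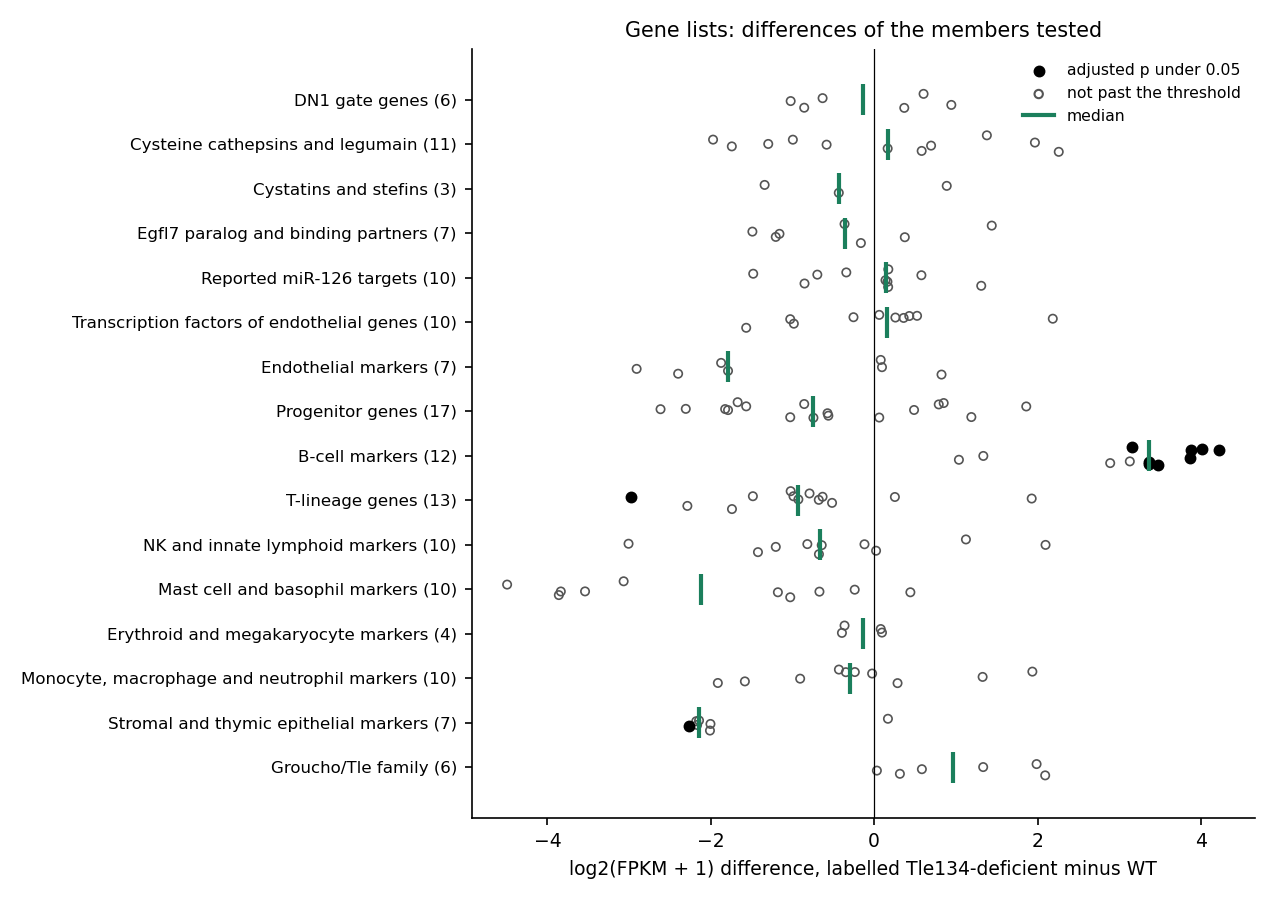
Log2(FPKM + 1) difference, labelled Tle134-deficient minus WT (horizontal axis), of each tested gene of 16 lists (rows, with the number tested); filled points had a limma adjusted p under 0.05 and green bars are list medians. Endothelial, mast cell and stromal lists have medians of -1.79, -2.12 and -2.14, the cathepsin and miR-126 target lists 0.17 and 0.15, and B-cell markers 3.36.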

How the data were processed

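RNA-seq gene tables of 6 libraries were used, 3 titled Tle134 mutant and 3 WT. Each table, 1 per library, holds the FPKM that the authors deposited for each locus and the bounds of its interval, in a layout like that of Cufflinks, per the file headers. Build mm9 and the tools Trimmomatic 0.38, TopHat2 2.1.1 and featureCounts 2.0.1 are named, without their roles, per the submitters' processing notes. The annotation used and the handling of strand are not stated. Depth is unknown beyond what the intervals imply.

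Symbols that share a row in any library were joined and FPKM added. Genes at 1 FPKM or more in at least 3 libraries (11063) were fitted as log2(FPKM + 1) by limma 3.58.1 (R 4.3.3) on group alone, using trended and robust empirical Bayes and Benjamini-Hochberg adjustment over all genes at 0.05. The fit was tested on simulated data with the same spread for every gene and changes placed only in higher genes. That run does not speak for genes near 0, such as the members. Joining, distances and sequence matches used Python 3.11.15, pandas 2.3.3 and Biopython 1.88. Start positions were raised by 1. Members and lists were chosen with earlier results of these data known. List genes joined to a gene outside their list were not counted. Named genes are the 3 members, the 3 closest profiles of each (no predicted models), all symbols within 100 kb, up to 3 called genes per list by adjusted p or else the first (1 of these is not reported here), and the Tle family; Ctsl, Cd34, Erg, Pecam1, Cpa3, Egfl8, Lcn4, Ecscr, Adgrl4 and single markers at or near 0 were added after their values were seen. Same-numbered libraries were not treated as pairs. Alternatives were the pseudocount, scaling, filter, row choice, replicate block, deposited bounds and each library left out.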

Additional observations from a re-analysis of the deposited data

How the results depend on the processing

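The differences of Ctla2a, Ctla2b and Egfl7 kept their sign under each alternative tried. They moved by more than the spread with a pseudocount of 0.1 (-4.99, -5.31 and -3.68) and, for Ctla2b and Egfl7, when upper deposited bounds in the mutant-labelled libraries were set against lower bounds in WT (-2.26 and -2.14). Leaving out 1 library gave -4.16 to -2.99, -3.10 to -2.68 and -3.51 to -2.67. Adding Ctla2a and Ctla2b, and leaving out replicate 3 of both groups, were chosen after seeing the data. The 83 genes called over all genes became 53 with a pseudocount of 0.1, 0 of 18943 with no filter (1181 at an unadjusted p under 0.05), and 0 to 58 without 1 library. Of the 133 list genes tested, 10 were called, and 0 to 8 without 1 library. The median-ratio scaling moved the median of all genes from 0.04 to -0.04. The sources used here do not state whether same-numbered libraries are pairs. Deviations of same-numbered libraries correlated at 0.08, 0.18 and 0.17, and those of other pairs at -0.20 to 0.03. Each library thus correlated best with its own number, and a link by number, such as a shared batch, was not tested. With a replicate block 2 genes were called over all genes, 1 of them lower (1374 at an unadjusted p under 0.05), and 1 among the lists. The calls of the 3 members thus cannot all have held there, and the member differences are the same by construction (-3.53, -2.87 and -2.96). Of 38 other named genes, 8 passed the threshold, and 3 changed sign under an alternative, with the cause not tested: Snhg7 (0.89 without mutant-labelled replicate 1, 0.80 without WT replicate 3, and -1.43 to 0.89 over the libraries left out), Tle2 (-0.49 without WT replicate 3, -0.49 to 0.73) and Aes (-0.050 with scaling, -0.13 without mutant-labelled replicate 1, -0.24 without WT replicate 2, -0.24 to 0.29). Depth limits single values, such as Egfl7 in mutant-labelled replicate 1, whose interval implies about 0.927 fragments.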
